A study of Mus musculus with 19 samples.

Results

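The 10 genes described here encode receptors for growth factors and hormones that act on pancreatic duct cells: the FGF receptors Fgfr1, Fgfr2, Fgfr3 and Fgfr4, the hepatocyte growth factor receptor Met and its relative Mst1r, the insulin and IGF receptors Insr and Igf1r, the GAS6 receptor Axl, and the gastrin receptor Cckbr. They were chosen by name as rows of the deposited gene table, with no use of measured values, and all 10 were found among its 29861 rows. Transcript levels were measured in 19 mouse organoid lines, cultures in which duct epithelium grows as hollow structures in a gel of basement membrane proteins. There were 7 normal lines from wild-type mice, 6 PanIN lines from mice that carried Pdx1-Cre, and 6 tumor lines from mice that carried Pdx1-Cre and Trp53LSL-R172H. PanIN is pancreatic intraepithelial neoplasia, the duct lesion that precedes invasive carcinoma, and Pdx1-Cre acts in cells descended from the early pancreas. All mice were C57B6/J. Their age was not used here. The labels do not say whether lines of a group came from separate mice, so each p-value measures the spread between lines.

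Receptor tyrosine kinases span the membrane once, dimerize when a ligand binds, and phosphorylate tyrosines that recruit adaptors of the MAP kinase, PI3K and phospholipase C pathways. Epithelial cells carry a splice form of FGFR2 that answers to FGF-7 and FGF-10 from the neighbouring mesenchyme, a signal known to drive growth of the embryonic pancreas. MET works in the same way with a ligand from the stroma, the insulin and IGF-1 receptors are already dimers when their hormones bind, and the gastrin receptor is a G protein-coupled receptor. All groups were grown in one medium, which supplied EGF at 0.05 ug/mL, FGF-10 at 0.1 ug/mL and gastrin I at 0.01 uM, with A83-01 (an inhibitor of TGF-beta receptors), noggin, R-spondin-conditioned medium and B27, a supplement that contains insulin. Levels are given in TPM, an abundance corrected for transcript length, which allows genes to be compared within a line. In RNA from a whole culture, fewer cells of a type and less RNA per cell cannot be told apart.

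The labelled duct identity was borne out by the markers: the summed level of 12 duct genes was 7515 to 15520 TPM per line. The sum was lower in tumor lines (7515 to 9422 TPM) than in normal lines (10450 to 15520 TPM). Gene by gene, 4 of the 12 fell and 0 rose by limma (33.3%, against 32.2% of all tested genes). The estimate was higher in tumor lines for 4 of the 12. All 12 fibroblast and stellate markers, all 6 endothelial markers and all 8 endocrine markers stayed below 1 TPM in every line, and 8 acinar markers summed to 0.83 to 2.55 TPM. The summed level of 8 leukocyte markers was 4.41 to 8.28 TPM in normal, 2.75 to 3.65 TPM in PanIN and 1.49 to 3.94 TPM in tumor lines, with 6 of the 8 never at 1 TPM. On the first principal component of 12500 tested genes, which held 41.9% of the variance, tumor lines 5, 8 and 9 lay apart at 37.6 to 45.7, beyond the other tumor lines (0.1 to 16.4) and all normal lines (-31.4 to -9.9). PanIN 6 lay at 30.4. Results that rest on tumor lines 5, 8 and 9 are given with and without them, a choice made after their values were seen. Fewer tumor lines remain then. The genes with a limma adjusted p below 0.05 between tumor and normal lines went from 4024 to 385. A lost call alone is therefore not particular to the gene that lost it.

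Fgfr2 and Met were the most abundant of the receptors, and they also ranked first and second by mean level among all 55 receptor tyrosine kinases in the table. Fgfr2 averaged 97.3 TPM and Met 86.9 TPM over the 19 lines, and Fgfr2 was the higher of the 2 in 14 lines. A middle group followed with Fgfr3 at 10.7, Insr at 10.3, Igf1r at 9.87, Axl at 7.43 and Fgfr4 at 7.20 TPM. Met exceeded Fgfr3 in 19 of 19 lines, and Fgfr4 exceeded Mst1r in 19 of 19 lines. Among neighbours inside the middle group, Insr exceeded Igf1r in 10 lines and Axl exceeded Fgfr4 in 10 of 19. Fgfr3 exceeded Insr in only 5 lines, although its mean was the higher. The means of each pair differed by less than the SD of either gene, and the pairs were not tested. Igf1r exceeded Axl in 17 of 19 lines, by 2.44 TPM on average. Mst1r and Fgfr1 lay near 1 TPM or below, and Cckbr was listed at 0 in every line.

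**Figure D1:**
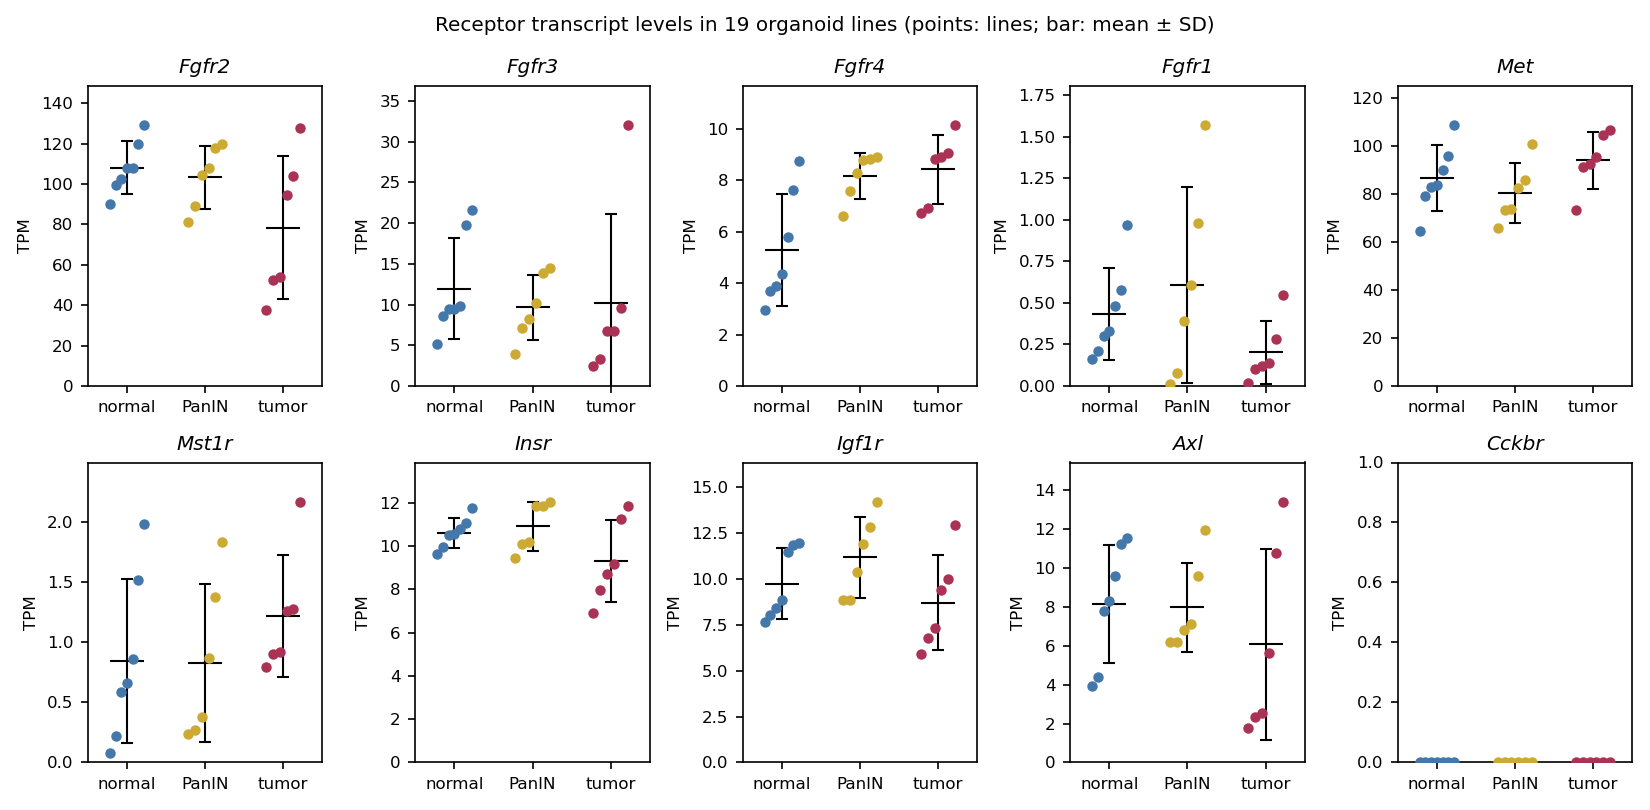
Transcript level in TPM (vertical axis, one scale per panel) of each receptor in the 7 normal, 6 PanIN and 6 tumor lines, with points for lines and a bar for mean ± SD. Fgfr2 spread from 37.9 to 128 TPM among tumor lines, Fgfr4 was lowest in normal lines, and Cckbr was at 0 throughout.

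The 3 comparisons that follow from the design are PanIN against normal, tumor against normal, and tumor against PanIN. The first and the second share the same normal lines, so their results are not independent. Of the 10 receptors, 8 passed the filter on low values (at least 1 TPM in at least 6 lines) and were tested on log2(TPM + 1) with limma over all 12500 tested genes. Fgfr1 reached 1 TPM in 1 line and Cckbr in 0 lines, and neither was tested. Between PanIN and normal lines 1 of 8 receptors was called, Fgfr4, which rose. Of all tested genes 6.78% were called there, 3.10% higher and 3.68% lower. Between tumor and normal lines 2 of 8 were called, a rise of Fgfr4 and a fall of Fgfr2, against 32.2% of all tested genes, 17.8% higher and 14.4% lower. Between tumor and PanIN lines 0 of 8 were called by limma, where 1.60% of all genes were called. Fgfr2, Igf1r and Insr had unadjusted p-values of 0.0307, 0.0464 and 0.0426 there, and the authors' deposited table gave 0 receptors an adjusted p below 0.05 there, against 11.7% of its tested genes. In the same table Fgfr4 alone among the receptors passed for PanIN against normal (10.5% of its tested genes) and for tumor against normal (32.5%). The median log2 difference of the 8 receptors was 0.01 (all tested genes -0.03) between PanIN and normal, -0.18 (all tested genes 0.04) between tumor and normal, and -0.25 (all tested genes 0.06) between tumor and PanIN lines.

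**Figure D2:**
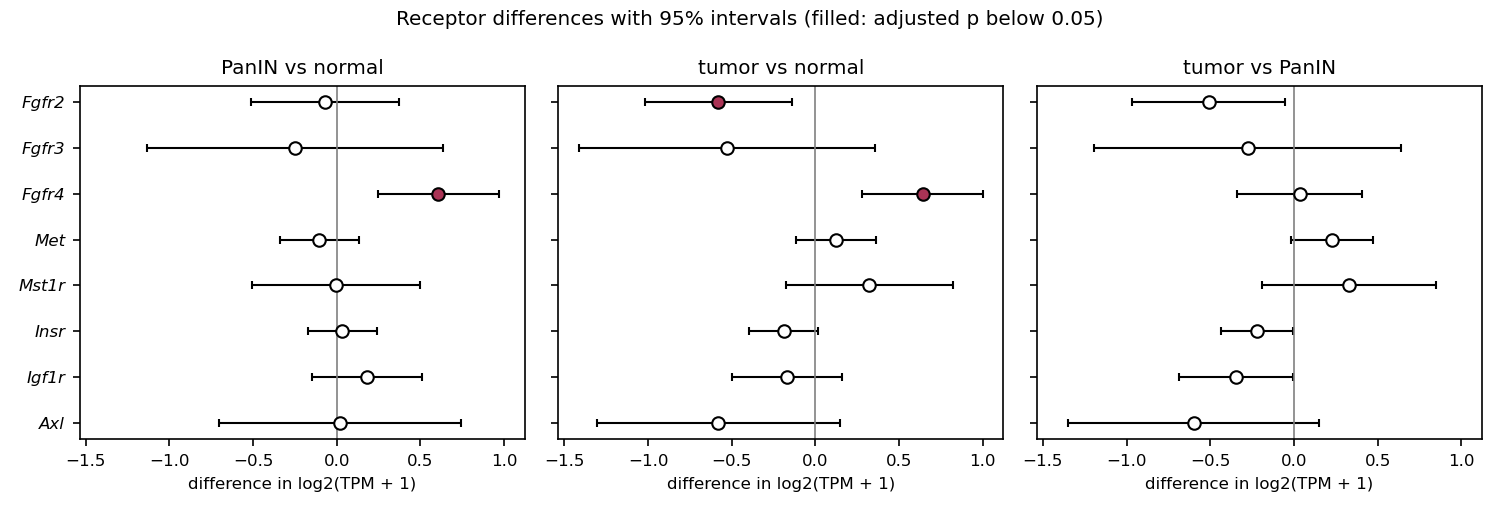
Difference in log2(TPM + 1) for the 8 tested receptors in each comparison (horizontal axis), with points for the limma estimate and bars for its 95% interval. Filled points mark the adjusted p-values below 0.05: Fgfr4 against normal lines in both comparisons (0.61 and 0.64) and Fgfr2 between tumor and normal lines (-0.58).

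FGFR2, whose epithelial splice form is the receptor for the FGF-10 in the medium, was the main FGF receptor transcript in every line. Its splice forms are not separated in these values, which are given per gene. Its level ran from 90.1 TPM (median 108.0) to 129.2 TPM in normal lines and from 81.1 (median 106.4) to 120.0 TPM in PanIN lines. In tumor lines it was 37.9 TPM in tumor 5, 52.3 in tumor 8, 53.9 in tumor 9, 94.6 in tumor 4, 103.9 in tumor 3 and 127.8 in tumor 7. Thus 3 tumor lines lay below every normal and PanIN line, and the other 3 lay within the normal range. The mean fell from 108.2 ± 12.97 TPM (SD, n = 7) in normal to 78.4 ± 35.4 TPM (n = 6) in tumor lines, a log2 difference of -0.58 (SE 0.21, limma adjusted p = 0.0421), or 1.49-fold lower. With tumor lines 5, 8 and 9 left out the difference was 0.00 (adjusted p = 0.99). These lines held the 3 lowest values and were left out after those were seen, so this fit is no independent test. The authors' deposited table gave a log2 fold change of -0.47 with an adjusted p of 0.0853, which does not pass the same threshold. The call was also lost when any 1 of 8 lines was left out (tumor 5, 8 or 9, or normal 5, 6, 10, 11 or 13), with adjusted p-values of 0.0525 to 0.118, and also with no filter on low values (0.0682), with only these 2 groups fitted (0.0734) and with sex as a covariate (0.0601). Between PanIN and normal lines the log2 difference was -0.07, with a 95% interval of -0.51 to 0.37.

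Within the 3 series of library identifiers that the column names carry, a possible batch, the tumor minus normal difference of Fgfr2 was -0.15 in the first (1 tumor line), -0.80 in the second and -0.52 in the third. With the series as a covariate the difference was -0.55 with an adjusted p of 0.0751.

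FGFR3, a receptor for several FGFs including FGF-1 and FGF-9, was far below Fgfr2 and varied widely. Normal lines held 5.17 TPM (median 9.48) to 21.6 TPM, PanIN lines 3.96 (median 9.25) to 14.4 TPM, and tumor lines 2.40 (median 6.74) to 32.1 TPM. The highest level, 32.1 TPM, was in tumor 7, the line with the highest Fgfr2 among tumor lines, and the groups overlapped. The tumor minus normal log2 difference was -0.53 with a 95% interval of -1.41 to 0.36. It was called once tumor 7 was left out (-0.93, adjusted p = 0.0475), and was 0.24 with tumor lines 5, 8 and 9 left out.

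FGFR4, which binds FGF-19 family hormones together with the co-receptor beta-Klotho and also binds FGF-1, was the receptor with the smallest adjusted p against normal lines. It ranged from 2.95 TPM (median 4.36) to 8.75 TPM in normal lines, from 6.63 (median 8.55) to 8.90 TPM in PanIN lines, and from 6.72 (median 8.88) to 10.2 TPM in tumor lines. Normal 5 and normal 7, at 7.63 and 8.75 TPM, reached the PanIN and tumor range, and the other 5 normal lines lay below it. Fgfr4 rose from 5.30 ± 2.18 TPM (SD, n = 7) in normal to 8.18 ± 0.90 TPM (n = 6) in PanIN lines, a log2 difference of 0.61 (SE 0.17, limma adjusted p = 0.0385), or 1.52-fold. It rose to 8.43 ± 1.34 TPM (n = 6) in tumor lines, a log2 difference of 0.64 (SE 0.17, limma adjusted p = 0.00987), or 1.56-fold. The tumor and PanIN means differed by a log2 value of 0.03, with a 95% interval of -0.34 to 0.41. The authors' deposited table gave log2 fold changes of 0.67 (adjusted p = 0.0107) for PanIN against normal and 0.64 (adjusted p = 0.00583) for tumor against normal.

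The size of the Fgfr4 difference went with the identifier series, and so did the level in normal lines. Normal lines of the first series held 5.78 to 8.75 TPM, those of the second 3.71 to 3.89 and those of the third 2.95 to 4.36. PanIN lines held 8.81 to 8.90, 6.63 and 7.60 to 8.28 TPM in the first series, the second and the third. Tumor lines held 8.84, 6.93 to 10.2 and 6.72 to 8.91 TPM. PanIN minus normal was 0.25, 0.67 and 0.96 in the first series, the second and the third, and tumor minus normal was 0.25, 1.00 and 0.93. All 6 within-series differences were positive. They are not independent, since PanIN and tumor lines were set against the same normal lines. PanIN in the second series and tumor in the first rest on 1 line each. With the series as a covariate the differences were 0.58 (adjusted p = 0.0149) and 0.76 (adjusted p = 0.00196). The PanIN call was lost without any 1 of 10 of the 19 lines (normal 6, 10, 11, 12 or 13, or PanIN 1, 2, 3, 5 or 6), with adjusted p-values of 0.05 to 0.0776, and also with no filter on low values (0.0622), with only the PanIN and normal lines fitted (0.0711) and with sex as a covariate (0.0547). No single line removed the tumor call (0.00212 to 0.0297), and with tumor lines 5, 8 and 9 left out the difference was 0.73 with an adjusted p of 0.0786.

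**Figure D3:**
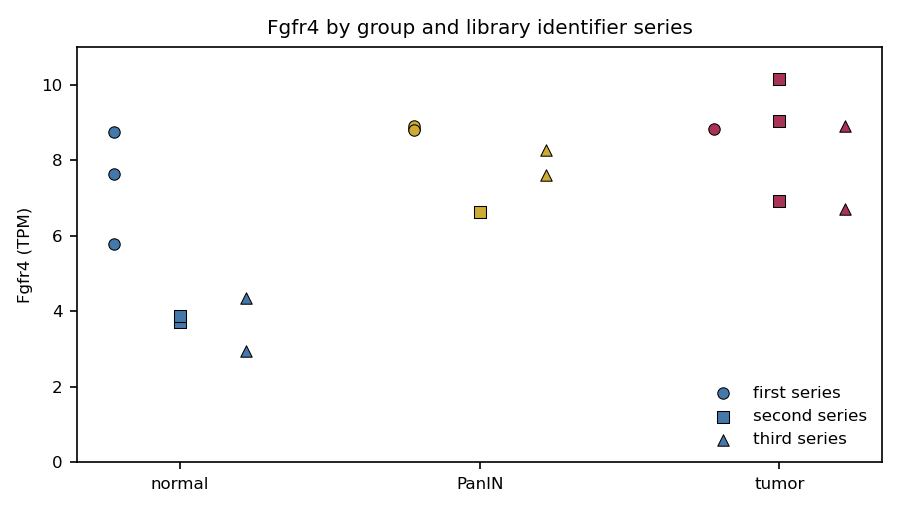
Fgfr4 level in TPM (vertical axis) by group and by the 3 series of library identifiers, one point per line. Normal lines of the second and of the third series lay at 2.95 to 4.36 TPM, below every PanIN and tumor line, while those of the first series lay at 5.78 to 8.75 TPM.

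FGFR1, the FGF receptor typical of mesenchymal cells, was low in every line, at 0.16 to 0.97 TPM in normal, 0.01 to 1.57 TPM in PanIN and 0.02 to 0.55 TPM in tumor lines. Fgfr2 therefore made up most of the FGF receptor transcripts, 75.6% to 89.9% of their summed TPM per line. Its mean share was 86.2% ± 2.35 in normal, 84.9% ± 2.15 in PanIN and 80.9% ± 4.60 in tumor lines. The share of Fgfr4 was 4.34% ± 1.94 in normal, 6.87% ± 1.47 in PanIN and 10.1% ± 3.92 in tumor lines. These shares were not tested, and those of the groups overlapped.

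**Figure D4:**
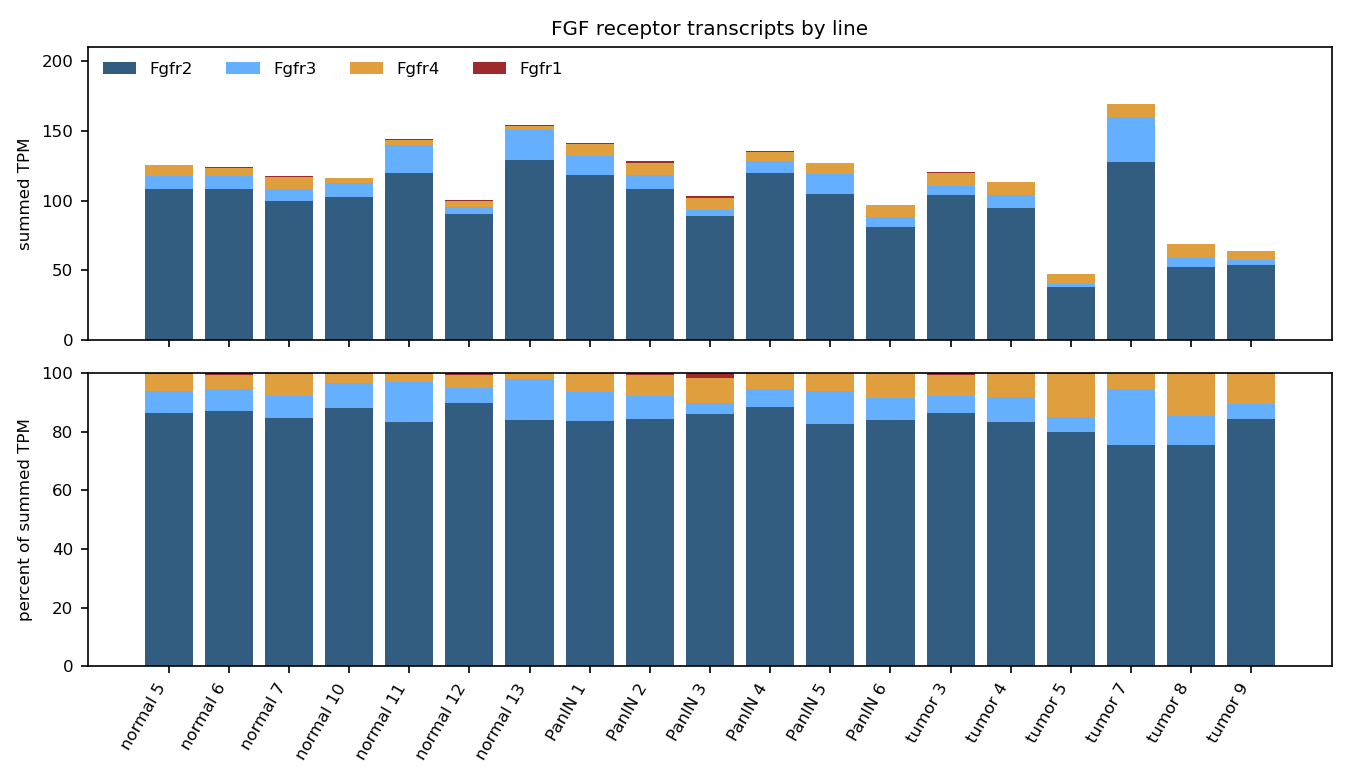
FGF receptor transcripts in each of the 19 lines, as summed TPM (upper bars) and as percent of the sum (lower bars), split by gene. Fgfr2 holds 75.6% to 89.9% of each bar, and the sums are lowest in tumor 5, 8 and 9.

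Fgfr2 and Fgfr3 went up and down together across lines. Pearson's r of their log2(TPM + 1) values was 0.78 over 19 lines, 0.80 after group means were removed and 0.79 without tumor lines 5, 8 and 9. Fgfr4 did not follow Fgfr2 (r = -0.23). These are descriptions of the same libraries, with no test. Fgfr2 and Fgfr4 were the called receptors, and Fgfr3, which was not called, followed Fgfr2. For these 3 the 250 bases before the transcription start that RefSeq (GRCm38.p6, a later build than that of the deposited table) gives are shown, 5′ to 3′ on the coding strand. Capitals mark GGGCGG or CCGCCC (the GC box on either strand) and CCAAT or ATTGG (the CCAAT box on either strand), and TATAAA or TTTATA was searched too. The windows are chr7:130266809-130267058 on the minus strand for Fgfr2, chr5:33721474-33721723 on the plus strand for Fgfr3 (the more upstream of 2 starts) and chr13:55152568-55152817 on the plus strand for Fgfr4.
Fgfr2: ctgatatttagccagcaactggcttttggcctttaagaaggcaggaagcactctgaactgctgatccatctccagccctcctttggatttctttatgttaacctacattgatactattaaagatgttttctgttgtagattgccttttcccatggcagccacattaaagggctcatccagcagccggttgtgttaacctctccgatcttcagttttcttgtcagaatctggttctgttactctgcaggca
Fgfr3: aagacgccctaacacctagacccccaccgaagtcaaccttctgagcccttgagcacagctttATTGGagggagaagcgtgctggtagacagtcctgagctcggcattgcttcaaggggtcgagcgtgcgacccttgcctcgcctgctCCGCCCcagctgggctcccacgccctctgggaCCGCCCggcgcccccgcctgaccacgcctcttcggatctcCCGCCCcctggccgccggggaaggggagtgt
Fgfr4: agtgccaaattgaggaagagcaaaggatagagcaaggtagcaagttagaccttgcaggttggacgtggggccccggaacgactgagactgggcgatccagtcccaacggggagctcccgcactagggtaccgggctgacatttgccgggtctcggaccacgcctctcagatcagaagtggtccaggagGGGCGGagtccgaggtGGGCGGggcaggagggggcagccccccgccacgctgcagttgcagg
The Fgfr3 window held 3 GC boxes, 1 CCAAT box and 19 CpG dinucleotides, the Fgfr4 window 2 GC boxes and 15 CpG, and the Fgfr2 window none of these motifs and 2 CpG. Among 32841 RefSeq windows of this length, 32.8% held a GC box, 33.9% a CCAAT box and 12.4% a TATA box, and the median CpG number was 6. A match is only a match of letters.

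Most FGF ligand genes were at or near 0 in the organoids themselves. Of 18 ligand genes, 15 stayed below 1 TPM in every line, and 5 of these, Fgf10 among them, were listed at 0 in all 19 lines. Fgf7 did not exceed 0.61 TPM, and Fgf15 reached at most 1.66 TPM. The highest was Fgf1, whose product binds every FGF receptor: its level was 0.49 to 2.48 TPM in normal lines, 2.96 to 5.43 TPM in PanIN lines and 4.33 to 8.97 TPM in tumor lines. All PanIN and all tumor lines lay above all normal lines, a separation seen for 3.05% and 7.26% of tested genes in these comparisons, in either direction. Fgf1 rose 1.99-fold in PanIN lines (log2 difference 0.99, SE 0.19, limma adjusted p = 0.0035) and 2.83-fold in tumor lines (1.498, SE 0.19, adjusted p = 8.61e-05). Without tumor lines 5, 8 and 9 the tumor difference was 1.30 (adjusted p = 0.00885), and within the 3 series it was 0.89, 1.38 and 2.13. Fgf18, at 0.57 ± 0.47 TPM in normal and 1.398 ± 0.36 TPM in tumor lines, rose 1.57-fold (adjusted p = 0.013), but not in the first series (-0.04). It had no call when tumor lines 5, 8 and 9 were left out (0.534 against 0.648, adjusted p = 0.245).

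Of 31 co-receptor and heparan sulfate genes, which hold FGFs at the cell surface, 26 were tested. Between PanIN and normal lines 1 rose and 2 fell (11.54%, against 6.78% of all tested genes), and between tumor and normal lines 2 rose and 6 fell (30.8%, against 32.2%). The median log2 difference of the 26 was -0.10 and -0.09, against -0.03 and 0.04 over all tested genes. Fgfbp1, a secreted protein that releases FGFs from the matrix, rose in both, from 85.0 ± 47.5 TPM in normal to 187 ± 40.5 TPM in PanIN and 154 ± 26.7 TPM in tumor lines (adjusted p = 0.0142 and 0.0162). It falls outside the naming rule and was chosen after its values were seen. Flrt2, a membrane protein of a family that binds FGF receptors, fell from 10.4 ± 2.75 TPM to 3.39 ± 1.82 TPM in PanIN (adjusted p = 0.000644) and 4.32 ± 0.90 TPM in tumor lines (adjusted p = 0.00228). Ext1, the heparan sulfate polymerase, fell 2.11-fold in tumor lines (adjusted p = 0.00123) and Sdc4, the heparan sulfate proteoglycan syndecan-4, fell 1.68-fold (adjusted p = 0.00127). Hs2st1, a heparan sulfate sulfotransferase, rose 1.29-fold in tumor lines (adjusted p = 0.00265). With the 3 tumor lines 5, 8 and 9 left out, these tumor calls were lost. The adjusted p-values were 0.0514 for Flrt2 (at a like difference of -1.14 against -1.09), 0.101 for Ext1, 0.101 for Sdc4 and 0.114 for Hs2st1. The log2 differences then were -0.71 against -1.076 for Ext1, -0.451 against -0.748 for Sdc4 and 0.293 against 0.362 for Hs2st1. Beta-Klotho (Klb), the partner of FGFR4 for hormonal FGFs, did not exceed 0.2 TPM in any line.

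MET, the receptor for hepatocyte growth factor, varied little. It lay between 64.7 TPM (median 83.9) and 108.7 TPM in normal, 65.7 (median 78.0) and 101.0 TPM in PanIN, and 73.5 (median 94.0) and 106.8 TPM in tumor lines, and all groups overlapped. The log2 difference was -0.10 (95% interval -0.34 to 0.13) for PanIN and 0.12 (-0.11 to 0.36) for tumor against normal, and 0.23 (-0.02 to 0.47) for tumor against PanIN. Met did not share the fall of Fgfr2 in tumor 5, 8 and 9, where it was 73.5, 104.4 and 95.5 TPM. Met made up 97.9% to 99.9% of the summed level of Met and Mst1r. MST1R, the receptor for macrophage-stimulating protein, was at 0.08 to 1.98 TPM in normal, 0.24 to 1.83 TPM in PanIN and 0.79 to 2.17 TPM in tumor lines, with a tumor minus normal log2 difference of 0.32 (95% interval -0.18 to 0.82).

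Their ligands were at or near 0: Hgf was listed at 0 in 18 lines and at 0.01 TPM in the other, and Mst1 did not exceed 0.11 TPM. Of the 15 genes of HGF, MSP and their activation, 11 were tested, with 1 rise and 1 fall between PanIN and normal lines, 0 rises and 3 falls between tumor and normal lines, and 1 fall between tumor and PanIN lines. These were 18.2%, 27.3% and 9.09% of the 11, against 6.78%, 32.2% and 1.60% of all tested genes. The protease gene Hgfac, whose product cleaves pro-HGF, rose from 10.1 ± 3.97 to 20.3 ± 8.25 TPM in PanIN lines (adjusted p = 0.0209), a call lost without PanIN 5, its highest line at 36.1 TPM (adjusted p = 0.0604). Cd44, whose variant forms act as MET co-receptors, fell 1.65-fold in PanIN and 1.76-fold in tumor lines (adjusted p = 0.0171 and 0.00271). Plxnb1, a semaphorin receptor that associates with MET, fell 1.77-fold in tumor lines (adjusted p = 0.00135). Leaving out tumor 5, 8 and 9 gave adjusted p-values of 0.0625 for Cd44 (at -0.82 in both fits) and 0.108 for Plxnb1 (at -0.54 against -0.825). The PanIN call of Cd44 was lost without PanIN 5 (0.0523). Plau, the urokinase protease, fell from 48.1 ± 10.6 TPM in PanIN to 25.8 ± 6.95 TPM in tumor lines (adjusted p = 0.0419), the 1 pathway gene called between these groups. Its call was lost without any 1 of normal 5, 7 or 13, PanIN 1, 2, 3 or 4, or tumor 5, 8 or 9 (adjusted p up to 0.118), while 25 pathway genes were called between these groups without PanIN 6 and 19 without tumor 4.

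INSR and IGF1R, the receptors for insulin and for IGF-1, were present at similar levels. Insr was 9.63 TPM (median 10.6) to 11.8 TPM in normal, 9.44 (median 11.0) to 12.1 TPM in PanIN and 6.92 (median 8.96) to 11.8 TPM in tumor lines. Igf1r was 7.66 TPM (median 8.86) to 11.9 TPM in normal, 8.83 (median 11.2) to 14.2 TPM in PanIN and 5.92 (median 8.34) to 12.9 TPM in tumor lines. In both genes the lowest 3 of the 6 tumor lines were tumor 5, 8 and 9. The tumor minus PanIN log2 difference was -0.22 (95% interval -0.44 to -0.01, limma adjusted p = 0.153) for Insr and -0.35 (-0.69 to -0.01, adjusted p = 0.161) for Igf1r, so neither was called. For Igf1r it was called without tumor 4 (-0.46, adjusted p = 0.0435). Tumor minus normal for Insr was -0.19 (95% interval -0.40 to 0.02) and was called without tumor 7 (-0.26, adjusted p = 0.0473). With tumor lines 5, 8 and 9 left out, the tumor minus PanIN differences were -0.02 for Insr and -0.04 for Igf1r.

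Insr went with Fgfr2 across lines (r = 0.81 over 19 lines), and so did Igf1r (r = 0.61). Without tumor lines 5, 8 and 9, chosen after their values were seen, Igf1r no longer did (r = -0.10 over 16 lines) and Insr did less (r = 0.21), whereas the relation of Fgfr3 with Fgfr2 kept its size. Among 8741 tested genes with a mean of at least 5 TPM, the 3 most like Fgfr2 over 19 lines were Kcnt2 (a potassium channel, r = 0.94), Rnf128 (a ubiquitin ligase, r = 0.92) and Gas6 (the ligand of AXL, r = 0.92). Without the 2 lines farthest from the Fgfr2 median, tumor 5 and tumor 8, these were 0.83, 0.78 and 0.77, and without tumor 5, 8 and 9 they were 0.70, 0.73 and 0.48. The 3 most like Fgfr4 were Pak6 (a kinase, r = 0.85), Usp46 (a deubiquitinase, r = 0.84) and Lrp5 (a WNT co-receptor, r = 0.84). Without normal 13 and normal 10, the lines farthest from the Fgfr4 median, these were 0.77, 0.76 and 0.72. After group means were removed they were 0.67, 0.73 and 0.74, and without tumor 5, 8 and 9 they were 0.89, 0.93 and 0.83. Spearman's rho over 19 lines was 0.595, 0.66 and 0.64. Like Fgfr4, all 3 were higher in normal lines of the first series than in the others. Usp46 was 65.8 to 69.3 TPM against 50.8 to 52.8, and Lrp5 was 33.5 to 41.8 against 20.2 to 27.3. The part of the series in these relations was not tested. The points of all these relations share their libraries, and the genes were picked for their r.

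**Figure D5:**
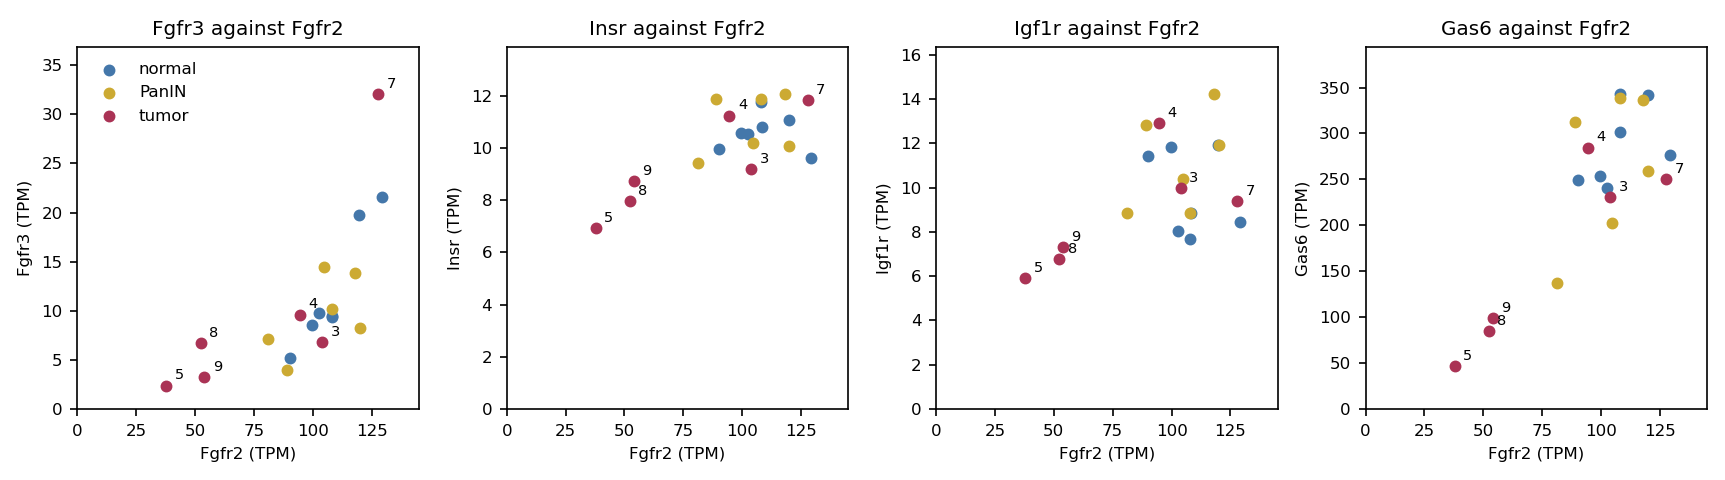
Levels in TPM of Fgfr3, Insr, Igf1r and Gas6 (vertical axes) against Fgfr2 (horizontal axis), one point per line, coloured by group, with tumor lines numbered. Tumor 5, 8 and 9 lie at the lower left for Fgfr2, Insr, Igf1r and Gas6, and tumor 7 stands apart at 32.1 TPM of Fgfr3.

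Insulin and IGF genes were at or near 0. Ins1 and Ins2 were listed at 0 in every line, and Igf1 and Igf2 did not exceed 0.04 and 0.06 TPM. Of the 26 genes of this axis, 12 were tested, with 1 rise and 1 fall between PanIN and normal lines (16.7%, against 6.78% of all tested genes) and 2 rises and 3 falls between tumor and normal lines (41.7%, against 32.2%). Enpp1, a membrane enzyme known to inhibit the insulin receptor, rose from 6.36 ± 2.34 TPM in normal to 11.8 ± 2.75 TPM in PanIN (adjusted p = 0.0227) and 16.4 ± 4.30 TPM in tumor lines (adjusted p = 0.000617). Leaving out tumor lines 5, 8 and 9 kept the tumor call (1.01, adjusted p = 0.047), while the PanIN call was lost without PanIN 1 or PanIN 5 (adjusted p = 0.0511 and 0.0527). Sh2b2, an adaptor of the insulin receptor, fell from 1.28 ± 0.15 TPM to 0.69 ± 0.18 TPM in PanIN (adjusted p = 0.00282) and 0.79 ± 0.06 TPM in tumor lines (adjusted p = 0.00506). Only normal lines reached 1 TPM of Sh2b2 (1.04 to 1.46 TPM), with at most 0.89 TPM in PanIN and 0.85 TPM in tumor lines. Sh2b2 thus passed the filter only through the group where it was high, and its calls, counted above, are no independent support. Without tumor 5, 8 and 9 its tumor difference was as large (-0.37 against -0.34) but not called (0.0788). The IGF-binding proteins Igfbp3 and Igfbp7 fell 1.98-fold and 2.22-fold in tumor lines (adjusted p = 0.0189 and 0.00943), and neither call remained without tumor lines 5, 8 and 9 (0.0758 and 0.36). The log2 difference then was -1.11 against -0.99 for Igfbp3, no smaller, and -0.56 against -1.15 for Igfbp7. Within the identifier series the tumor minus normal difference of Igfbp7 was 0.14 in the first (1 tumor line), -1.51 in the second and -1.72 in the third. That of Igfbp3 was -0.97, -0.73 and -1.05.

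AXL, a receptor of the TYRO3, AXL and MERTK family that binds GAS6 and is often raised in mesenchymal-like carcinoma cells, ranged from 3.95 TPM (median 8.32) to 11.6 TPM in normal and 6.19 (median 6.96) to 11.9 TPM in PanIN lines. In tumor lines it was 13.4 TPM in tumor 3, 10.8 in tumor 5, 5.65 in tumor 4, 2.53 in tumor 8, 2.36 in tumor 9 and 1.79 in tumor 7. Tumor lines thus held both the highest and the 3 lowest values of the 19 lines. The tumor minus normal log2 difference was -0.58 (95% interval -1.30 to 0.14, limma adjusted p = 0.204). It was called once tumor 3 was left out (-0.84, adjusted p = 0.0495). The PanIN minus normal difference was 0.02 (95% interval -0.70 to 0.74). Axl made up 48.4% to 90.2% of the summed level of the 3 family members, Tyro3 most of the rest, and Mertk did not exceed 0.27 TPM.

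Its ligand Gas6 was made by the organoids at a high level, 286.6 ± 43.0 TPM in normal, 264.3 ± 81.5 TPM in PanIN and 166.1 ± 100.7 TPM in tumor lines. In tumor 5, 8 and 9 it was 46.8, 84.9 and 99.2 TPM, below every normal and PanIN line, and in the other tumor lines it was 230.9 to 284.7 TPM. Gas6 fell 2.07-fold in tumor lines (log2 difference -1.05, SE 0.34, limma adjusted p = 0.0239). Without those 3 lines the difference was -0.16 (adjusted p = 0.759), and without any 1 of them the call was lost (0.0591 to 0.0674), as it was with the series covariate (0.0507). Of the 3 tested genes of this axis, 1 fell in PanIN and all 3 in tumor lines, where 3.68% and 14.4% of all tested genes were called lower. Pros1, the other ligand of the family, fell 2.19-fold in tumor lines (adjusted p = 0.00131), and Tyro3 fell 1.55-fold in PanIN (adjusted p = 0.0178) and 1.34-fold in tumor lines (adjusted p = 0.0425). The tumor call of Tyro3 held in 7 of 19 fits with 1 line left out and in 6 of 13 other alternative fits. Without tumor 5, 8 and 9 the tumor calls of Pros1 and Tyro3 were lost (adjusted p = 0.101 and 0.38). The log2 differences then were -0.677 against -1.132 for Pros1 and -0.345 against -0.423 for Tyro3. Leukocyte markers, whose sums are given above, were also lower in PanIN and tumor lines, and their part in these falls was not tested.

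CCKBR, the receptor for gastrin and cholecystokinin, was listed at 0 TPM in all 19 lines, although gastrin was in the medium. The table lists 8871 genes at 0 in every line, and 0 of its 93 ribosomal protein genes are among them. A value of 0 limits the transcript only as far as the depth, which TPM does not keep. The authors' deposited table gives no comparison for Cckbr. The related receptor Cckar did not exceed 0.02 TPM, and the hormones Gast and Cck were listed at 0 throughout. Of 11 genes of this axis, 6 were tested, with 0 calls between PanIN and normal lines, and 3 rises and 1 fall between tumor and normal lines, where 17.8% of all tested genes were called higher and 14.4% lower. The members that moved were general processing and signalling genes. The tyrosylprotein sulfotransferases Tpst1 and Tpst2 rose 1.44-fold and 1.24-fold (adjusted p = 0.00198 and 0.0436), the G protein gene Gna11 rose 1.26-fold (adjusted p = 0.0228), and Cpe, a prohormone carboxypeptidase, fell 2.44-fold (adjusted p = 0.00819). The Tpst2 call held in 8 of 19 fits with 1 line left out and in 8 of 14 other alternative fits. That of Gna11 held in 16 of 19 and 11 of 14. Rescaling without the expressed rows that have no authors' comparison lost both calls (0.225 for Tpst2, adjusted p = 0.114, and 0.241 for Gna11, adjusted p = 0.0547). None of these 4 calls remained without tumor lines 5, 8 and 9 (adjusted p = 0.143, 0.542, 0.498 and 0.334). The log2 differences then were 0.304 against 0.527 for Tpst1 and 0.171 against 0.309 for Tpst2. They were 0.169 against 0.327 for Gna11 and -0.695 against -1.288 for Cpe.

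Downstream of the receptors, 36 of 41 adaptor and attenuator genes were tested, with 0 rises and 5 falls between PanIN and normal lines and 7 rises and 10 falls between tumor and normal lines. These were 13.9% and 47.2% of the 36, against 6.78% and 32.2% of all tested genes. The median log2 difference was -0.06 and -0.07, against -0.03 and 0.04 over all tested genes. Shc2, an SHC adaptor, fell from 6.10 ± 2.37 TPM in normal to 1.73 ± 0.79 TPM in PanIN (adjusted p = 0.00129) and 0.92 ± 0.48 TPM in tumor lines (adjusted p = 5.21e-05). Plcg2, a phospholipase C, fell 1.82-fold and 2.07-fold (adjusted p = 0.00158 and 0.000181). Gab2, a docking protein, fell 1.52-fold and 1.38-fold (adjusted p = 0.0176 and 0.0241). The tumor calls of Shc2 and Plcg2 remained without tumor lines 5, 8 and 9 and that of Gab2 did not (0.273), at a log2 difference of -0.42 against -0.46.

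Beside the described receptors, 46 other receptor tyrosine kinase genes were in the list and 21 were tested. Between PanIN and normal lines 1 rose and 5 fell, and between tumor and normal lines 2 rose and 12 fell. These were 28.6% and 66.7% of the 21, against 6.78% and 32.2% of all tested genes. The median log2 differences were -0.29 and -0.54, against -0.03 and 0.04 over all tested genes. Egfr, the receptor for the EGF in the medium, fell from 64.3 ± 23.4 TPM in normal to 21.9 ± 5.26 TPM in tumor lines (log2 difference -1.46, limma adjusted p = 0.000193), with all tumor lines (16.7 to 30.2 TPM) below all normal lines (38.6 to 93.5 TPM). Without tumor lines 5, 8 and 9 the difference was -1.23 (adjusted p = 0.0187), and within the 3 series it was -0.47, -1.90 and -1.96. In PanIN lines Egfr was at 38.0 ± 9.30 TPM and was not called. Its partners Erbb2 and Erbb3 were at 12.4 to 23.1 and 34.5 to 52.8 TPM and were not called in any comparison, and Erbb4 did not exceed 0.09 TPM. Ret and Epha1 fell in both PanIN and tumor lines, Ret from 1.35 ± 0.34 to 0.34 ± 0.14 and 0.44 ± 0.21 TPM (adjusted p = 0.000236 and 0.000405) and Epha1 from 15.96 ± 2.06 to 9.79 ± 1.97 and 9.21 ± 0.90 TPM (adjusted p = 0.000944 and 0.000241). Ret reached 1 TPM only in normal lines (1.02 to 2.02 TPM), with at most 0.58 TPM in PanIN and 0.82 TPM in tumor lines. It thus passed the filter only through the group where it was high, and its calls, counted above, are no independent support. Csf1r, which is also one of the leukocyte markers, fell from 2.57 ± 1.53 to 0.81 ± 0.29 and 0.56 ± 0.42 TPM (adjusted p = 0.0179 and 0.00138). Outside the normal lines only PanIN 1 (1.22 TPM) and tumor 4 (1.26 TPM) reached 1 TPM of Csf1r, so it too passed the filter through normal lines. Without tumor 5, 8 and 9 the tumor calls of Ret and Epha1 remained and that of Csf1r did not (-0.846 against -1.141, adjusted p = 0.0975).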

How the data were processed

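The authors deposited TPM values per line for 29861 genes, scaled to one total in every line, together with their own comparisons per gene. Tools named in the submitters' processing notes were FastQC, Bowtie 1.1.0, RSEM 1.2.11, DESeq and DESeq2 1.4.1, with the build mm9. Per the labels' protocols, RNA came from several wells of Matrigel culture per line and libraries were strand-marking after removal of ribosomal RNA. The authors' comparisons hold, per the file headers, a base mean (a normalized signal), a log2 fold change with its standard error, a test statistic (a score), a p-value and an adjusted p-value. TPM keeps no depth, so the reads behind each value are unknown. The number of columns of other samples is 0.

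Here log2(TPM + 1) values were fitted by limma 3.58.1 (R 4.3.3), with 1 mean per group over 19 lines, eBayes with trend, two-sided tests and Benjamini-Hochberg adjustment over the 12500 genes with at least 1 TPM in at least 6 lines. A gene was called at an adjusted p below 0.05. A fold is 2 to the power of the log2(TPM + 1) difference and so understates changes of low genes. The script was tested on simulated data. The packages data.table (version 1.17.8) and jsonlite 2.0.0 read the files, and Python 3.11.15 with matplotlib 3.10.9 drew the figures.

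The receptors and the 8 pathway and 6 marker lists were chosen with earlier results of these data known. Named genes were the 10 receptors, up to 4 called genes per pathway list with the smallest p, the ligands and near relatives by level, and the 3 genes most like each called receptor. The identifier series hold normal 5, 6 and 7, PanIN 1, 2 and 3 and tumor 4 (first), normal 10 and 11, PanIN 4 and tumor 5, 7 and 8 (second), and the remaining lines in the third. Some alleles and a gene that the naming rule takes are not reported here.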

Additional observations from a re-analysis of the deposited data

Results flagged for a closer look

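In tumor 7, Fgfr3 stood at 32.1 TPM against 9.61 TPM in the next tumor line, a gap that was 0.757 of the range of the 6 tumor lines, above the 0.625 that Dixon's test allows for 6 values. In tumor 8, Mst1r stood at 2.17 TPM against 1.28 TPM in the next tumor line, a gap of 0.645 of the range. With 27 groups of values examined, chance alone flags about 1 in 20 groups.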

How the results depend on the processing

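Fgfr4 kept its direction in both comparisons with normal lines under every alternative run, but the replicate block took its log2 difference from 0.608 to 0.115 (adjusted p = 0.722) for PanIN and from 0.642 to 0.132 (adjusted p = 0.667) for tumor against normal lines. The count of receptors called between PanIN and normal lines went from 1 to 0 with no filter, with 2 groups only, with a sex covariate and with the replicate block. Between tumor and normal lines it went from 2 to 1 with no filter, with 2 groups only, with the sex covariate and with the series covariate, to 0 with the replicate block, and to 0 with tumor lines 5, 8 and 9 left out, an alternative chosen after the data were seen. Leaving out 1 line at a time gave 0 to 1 between PanIN and normal, 1 to 4 between tumor and normal (4 without tumor 7) and 0 to 1 between tumor and PanIN lines. The cause of these changes was not tested, apart from the lines left out.

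Pathway genes called between PanIN and normal lines numbered 19, and 12 with a filter at 5 TPM, where fewer genes were tested. Without single lines they were 12 to 23. Between tumor and normal lines they numbered 55, and 8 without tumor 5, 8 and 9. Between tumor and PanIN lines they numbered 1, and 2 with median-of-ratios scaling or quantile normalization, 0 with the series covariate or without tumor 5, 8 and 9, and 0 to 25 without single lines. All genes called between PanIN and normal lines went from 847 to 535 with the filter at 5 TPM and 496 to 893 without single lines. Between tumor and normal lines they went from 4024 to 385 without tumor 5, 8 and 9 and 2657 to 4860 without single lines. Between tumor and PanIN lines they went from 200 to 93 with no filter, 130 with the filter at 5 TPM, 303 with median-of-ratios scaling, 333 with quantile normalization, 97 with 2 groups only, 65 with the series covariate, 7 without tumor 5, 8 and 9, and 53 to 2836 without single lines. Scaling moved the median of all genes by less than 0.1, but the share of tumor calls that were higher went from 55.1% to 37.7% when 11 expressed rows with no authors' comparison, which held 16.3% to 28.6% of TPM, were taken out.

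Whether shared line numbers pair the lines was not settled. Deviations of the 7 same-numbered pairs correlated at -0.307 to 0.247 (median 0.071). Those of the 113 other pairs correlated at -0.725 to 0.607 (median -0.003). All 7 same-numbered pairs joined lines of different identifier series, so a pairing could not be told apart from differences between series. The replicate block gave 7, 7 and 0 pathway genes and 258, 225 and 8 genes in all for PanIN against normal, tumor against normal and tumor against PanIN lines.

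Signs that turned belonged to differences with no call, except Fgfr2. Without tumor 5, 8 and 9, tumor minus normal was 0.004 for Fgfr2, 0.24 for Fgfr3, 0.138 for Igf1r and 0.013 for Insr, and tumor minus PanIN was 0.074 for Fgfr2 and 0.491 for Fgfr3. The replicate block gave PanIN minus normal values of 0.256 for Fgfr3, 0.234 for Met, 0.203 for Mst1r, -0.103 for Insr and -0.394 for Axl, 0.18 for Fgfr3 in tumor minus normal and -0.157 for Mst1r in tumor minus PanIN. Mst1r in PanIN minus normal was 0.049 and 0.001 with pseudocounts of 0.1 and 0.5, 0.011 with median-of-ratios scaling, 0.012 with the series covariate and -0.146 to 0.125 without single lines. Axl there was -0.091 with the sex covariate, -0.004 with the series covariate and -0.114 to 0.109 without single lines. Fgfr4 in tumor minus PanIN was -0.028 after rescaling, -0.023 with median-of-ratios scaling and -0.018 to 0.089 without single lines. The 42 called differences of named pathway genes kept their sign in all 574 values under alternatives and 798 without single lines, and lost the call in 70 and 47 of these. Count models were not run, since the table holds no counts.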
